A study of Homo sapiens with 4 samples.

Results

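The genes described here carry out glucose uptake, glycolysis, lactate formation and export, and glycogen turnover. They were followed in SKOV3-ALDH+ ovarian cancer stem cells (OCSCs) given vehicle or LY500307. The members were 36 gene symbols set out by name, and the list was selected in part on the measured counts of LY500307 against vehicle, in which HK2, the gene of hexokinase 2, was lower. Of these symbols, 35 were found among the 23228 genes of the count tables, since PKM and PKM2 are names of 1 gene that the tables list as PKM2. The expression filter kept 34 members among 14473 genes. The remaining member, FBP1, was counted in 1 library only, with 1 read.

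SKOV3 is a human cell line established from ovarian cancer. Its ALDH+ fraction was collected by FACS with the ALDEFLUOR kit, which reports aldehyde dehydrogenase activity, and was grown as spheroids in serum-free medium with B27, EGF, bFGF, hydrocortisone and insulin. The Vehicle group (n = 2) received the carrier for 24 h, and the LY500307 group (n = 2) received 5 µM LY500307, an ERβ agonist, for 24 h. All 4 libraries are labelled as this line, with no other genotype or treatment between the groups, and the sources do not say whether they came from 1 sort. The sources describe sequencing in duplicate with reads combined and do not say whether replicates were separate cultures, so the spread between replicates may be technical.

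Glycolysis splits glucose into pyruvate in the cytosol and yields ATP and NADH. Lactate dehydrogenase then turns pyruvate into lactate and regenerates the NAD+ that glycolysis needs, and monocarboxylate transporters carry lactate across the membrane. Proliferating tumour cells are known for high glucose use with lactate release even where oxygen is present. Many of the genes are known targets of HIF1 and MYC, which bind DNA at sites that often hold ACGTG or CACGTG.

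Most members were near their vehicle level after LY500307, and a few genes were lower. HK2 was the 1 member that met the study's criteria, an unadjusted p under 0.05 and a log2 fold change over 0.5 in size, which is 2.94% of the 34 members. Among all genes tested 4.62% met them, 1.86% lower and 2.76% higher with LY500307. Under the same criteria DESeq2 called HK2 alone of the members and 3.07% of all genes it tested. The PFKFB3 and PFKFB4 regulators of phosphofructokinase and the lactate dehydrogenase gene LDHA were lower in both LY500307 libraries than in both vehicle libraries. So were 13 of the 34 members in all, these and HK2 included, and 24.4% of all genes tested. GAPDH, ENO1, ALDOA and PGK1, abundant enzymes of the pathway, differed by less than 0.2 on the log2 scale. TPI1, also abundant, was at 0.22. Since the contrast of LY500307 with vehicle took part in choosing the genes, its values are given as a description, and nothing was tested on the list.

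Promoter sequence is shown for HK2 and the other 3 lower members with an unadjusted p under 0.05 in edgeR, so that the motifs in front of the genes can be seen beside the values. The windows are the 250 bases before an annotated start in RefSeq, build GRCh38.p14, printed 5′ to 3′ on the strand of the gene. Capitals mark ACGTG, its reverse complement CACGT, and CACGTG, which holds both. HK2 has 2 annotated starts, at chr2:74833877-74834126 for the first window and chr2:74834920-74835169 for the second, both on the plus strand, and each window held 2 separate places with ACGTG.
HK2 window 1: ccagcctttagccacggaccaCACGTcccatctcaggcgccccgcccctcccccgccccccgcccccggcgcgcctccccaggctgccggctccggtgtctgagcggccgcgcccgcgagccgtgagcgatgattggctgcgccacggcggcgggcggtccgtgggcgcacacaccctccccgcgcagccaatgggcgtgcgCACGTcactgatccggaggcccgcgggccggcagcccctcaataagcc
HK2 window 2: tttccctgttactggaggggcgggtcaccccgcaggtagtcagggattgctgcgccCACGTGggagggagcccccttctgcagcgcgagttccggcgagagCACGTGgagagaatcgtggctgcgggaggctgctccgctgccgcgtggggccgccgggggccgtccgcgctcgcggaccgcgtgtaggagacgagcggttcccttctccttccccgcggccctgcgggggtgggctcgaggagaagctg
The window of PFKFB4 at chr3:48556804-48557053, on the minus strand, held 0 such places, and the second window of PFKFB3 at chr10:6202682-6202931, on the plus strand, held 1.
PFKFB4 window 1: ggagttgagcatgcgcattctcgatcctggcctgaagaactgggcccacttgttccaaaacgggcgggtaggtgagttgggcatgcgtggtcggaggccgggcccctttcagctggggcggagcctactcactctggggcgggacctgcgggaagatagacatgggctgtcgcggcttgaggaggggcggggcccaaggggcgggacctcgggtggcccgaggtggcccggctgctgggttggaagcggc
PFKFB3 window 2: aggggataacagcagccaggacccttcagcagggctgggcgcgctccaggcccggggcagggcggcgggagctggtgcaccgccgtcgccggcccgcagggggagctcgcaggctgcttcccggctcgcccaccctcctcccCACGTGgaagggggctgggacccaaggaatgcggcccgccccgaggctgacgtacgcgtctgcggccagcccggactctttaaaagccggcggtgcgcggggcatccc
The first window of LDHA at chr11:18394313-18394562, on the plus strand, held 3 places. GAPDH is shown as an abundant member that was not lower, and its window at chr12:6535014-6535263, on the plus strand, held 1.
LDHA window 1: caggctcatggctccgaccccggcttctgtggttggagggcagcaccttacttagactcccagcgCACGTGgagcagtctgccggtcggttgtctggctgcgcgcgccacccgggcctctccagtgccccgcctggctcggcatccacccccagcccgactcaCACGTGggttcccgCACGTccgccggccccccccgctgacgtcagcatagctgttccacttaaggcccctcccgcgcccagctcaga
GAPDH window 1: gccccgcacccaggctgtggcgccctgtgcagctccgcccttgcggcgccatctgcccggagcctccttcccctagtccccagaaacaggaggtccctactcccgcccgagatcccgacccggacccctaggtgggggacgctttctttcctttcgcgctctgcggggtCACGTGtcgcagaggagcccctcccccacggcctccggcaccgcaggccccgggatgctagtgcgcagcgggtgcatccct
The 7 windows of HK1, the paralog of HK2, held no ACGTG, nor did the first window of PFKFB3 and the second of LDHA, which are not printed. Of 2 further members with a negative log2 fold change past 0.3 in size, PGAM1 had 1 window with no ACGTG and PFKP had 4 windows, 1 of which held it. ACGTG was thus found before HK2, PFKFB3, LDHA and GAPDH, and not in the windows of PFKFB4 and PGAM1. Other forms of the HIF1 and MYC sites were not searched for. The part of these letters in the values was not tested.

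Over all members, 32 genes had at least 1 window, 60 windows in all, each counted here over 300 bases from 250 before to 50 after the start and on both strands. ACGTG was found in 22 of the 60 windows, or 36.7%, against 21.4% of all 35116 windows in the table. CACGTG, which contains it, was found in 7 windows (11.7%, against 7.26% of all windows). GGTCA, a repeat unit of estrogen response elements, was found in 21 windows (35.0%, against 37.4%). GGGCGG, the GC box read by SP1, was found in 43 windows (71.7%, against 45.0%). Some windows of the same gene overlap one another, and a match is only a run of letters. SLC2A3, PFKFB2 and SLC16A1 had no window in the table.

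Between 28841701 and 34943882 reads per library were counted on genes, and the members took 0.892% to 0.948% of them. A count of 3 reads equals 0.0864 to 0.106 CPM, the unit used below for the reads of a gene scaled to a common library size. Reads on no gene made up 17.3% of tallied reads in LY500307 replicate 2, the lowest share, and 20.5% in vehicle replicate 2, the highest. In a check of the labelled line, the epithelial gene EPCAM had 194 to 240 CPM. ERBB2, which is known to be amplified in SKOV3, had 48.7 to 59.3 CPM, or 4.72 to 5.75 RPKM. In each library its RPKM was below that of PFKFB2, which ranked 6210 among 13771 genes. PAX8 had 0 reads in all 4 libraries, KRT19 had 2 reads in 1 library and 0 in the others, and KRT8 had 9 to 33 reads. WT1 and MUC16 had 6 reads or fewer in each library, whereas the keratin gene KRT18 had 23.5 to 31.8 CPM. Markers of the labelled line were therefore partly present and partly absent, and ERBB2 was not among the abundant genes. The libraries are called SKOV3 only as their labels do. The summed fibroblast genes (COL1A1, COL1A2, COL3A1, DCN and PDGFRB) stood at 888 and 898 CPM with vehicle and 979 and 1152 CPM with LY500307, of which the collagens COL1A1, COL1A2 and COL3A1 made up most. These 3 were higher in both LY500307 libraries than in both vehicle libraries, as were 24.2% of all genes tested, and DCN was lower in both (9.11 and 9.60 CPM against 7.58 and 8.75 CPM). The summed leukocyte genes ranged from 11.8 to 18.1 CPM, of which 11.5 to 17.9 CPM was CD68, with MS4A1 at 0 reads and PTPRC and CD3E at 4 reads or fewer. The summed endothelial and red cell genes ranged from 1.53 to 2.85 CPM, with CDH5 and PECAM1 at 4 reads or fewer. Among the genes of the sort, ALDH1A1 had 4.71 to 5.41 CPM and ALDH2 61.7 to 69.1 CPM. ESR1 had 0 reads in every library, and ESR2, which encodes the ERβ receptor of the agonist, had 7 and 8 reads with vehicle and 12 and 7 reads with LY500307. The part of these marker values in the member values was not tested.

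Levels were compared between genes per kilobase of exon (RPKM, from a GRCh37 annotation, with library sizes scaled by TMM). GAPDH, the gene of the enzyme that oxidises glyceraldehyde-3-phosphate, was highest, with a mean of 471.6 RPKM over the 4 libraries, and ranked 8 among 13771 genes. LDHB (362.3 RPKM, rank 14) came next, then ENO1 (171.3 RPKM), PKM2 (163.3 RPKM) and ALDOA (151.3 RPKM). TPI1 (110.0 RPKM) and LDHA (109.2 RPKM) closed the group of 7 members over 100 RPKM. The neighbours ENO1 and PKM2 overlapped across libraries, as did TPI1 and LDHA. At the other end, the lactate exporter SLC16A3 had 0.401 RPKM and ranked 12005, and PFKP had 2.10 RPKM. The members thus spanned the range from the most abundant transcripts of the cells to transcripts with few reads, at 111 to 50641 reads per library.

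**Figure D1:**
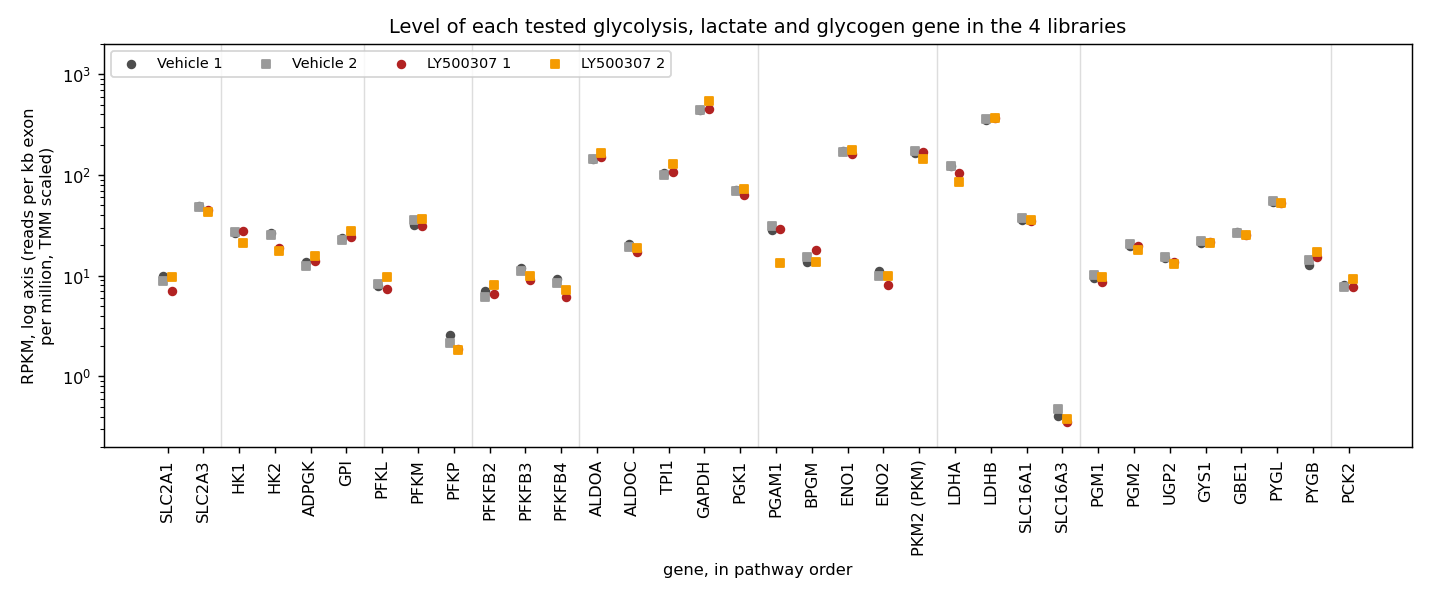
Level of each of the 34 members in RPKM (log axis, TMM scaled) in pathway order, 1 point per library, grey for vehicle and red or orange for LY500307. GAPDH and LDHB sit highest and SLC16A3 lowest, and for most genes the 4 points lie on top of each other, with PGAM1 of LY500307 replicate 2 apart from the other 3.

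Across the list, the median log2 fold change (LY500307 over vehicle) was -0.07, where the median of all genes tested was 0.00, and the values ran from -0.52 (HK2) to 0.27 (PYGB). Of the 34 members, 22 had a negative and 12 a positive value, and 24 were under 0.2 in size. Members past 0.3 in size numbered 5, or 14.7%, where 27.4% of all genes tested were past it. The LY500307 and vehicle libraries did not overlap for 20 members (58.8%), 13 of them lower and 7 higher with LY500307. Among all genes tested 48.6% did not overlap, 24.4% lower and 24.2% higher. An unadjusted p under 0.05 was given by edgeR to 5 members (14.7%), against 11.6% of all genes tested, namely HK2, PFKFB3, PFKFB4 and LDHA, all lower, and PYGB, which was higher. No gene of the 14473 had an adjusted p under 0.05 in edgeR's quasi-likelihood test, where 1678 had an unadjusted p under 0.05. DESeq2 gave 16 genes an adjusted p under 0.05, of which 0 were members.

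**Figure D2:**
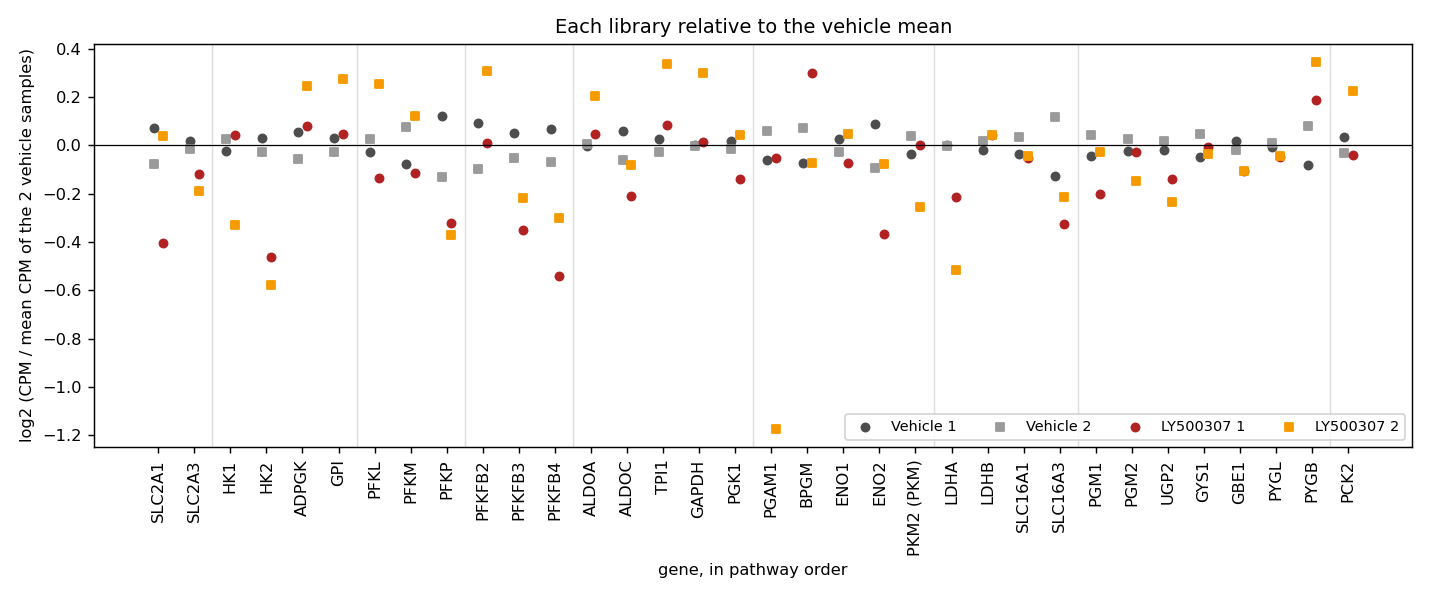
Each library relative to the mean CPM of the 2 vehicle libraries (y axis, log2 ratio), for the 34 members in pathway order along the x axis. In 13 members, among them HK2, PFKFB4, PFKFB3, PFKP and LDHA, both LY500307 points lie under both vehicle points (24.4% of all genes tested). In 7 members, among them TPI1, GAPDH and PYGB, both lie above (24.2% of all genes tested). The lowest point, at -1.17, is PGAM1 in LY500307 replicate 2.

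Glucose enters through facilitative transporters. SLC2A3 (GLUT3), the more abundant of the 2 members, had 357 and 349 CPM with vehicle and 325 and 310.2 CPM with LY500307, a log2 fold change of -0.15 (SE 0.10). SLC2A1 (GLUT1) had 65.2 and 58.8 CPM with vehicle and 46.8 and 63.6 CPM with LY500307. The SLC2A3 libraries did not overlap, and the SLC2A1 libraries did, since LY500307 replicate 2 lay between the vehicle values. Of summed transporter RPKM, SLC2A1 made up 16.7% and 15.6% with vehicle and 13.6% and 18.4% with LY500307. In SLC2A3 only 78.9% of the 50-base stretches of exon occur once in GRCh37, so some of its reads may have been set aside as not unique.

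Hexokinases phosphorylate glucose and so hold it in the cell. HK2, the inducible isozyme that also binds the outer mitochondrial membrane, occupies 75061254 to 75120486 of chromosome 2 (GRCh37, plus strand). It was counted with 4709 and 4289 reads in the vehicle libraries and 3875 and 3336 reads in the LY500307 libraries, or 157 and 151 CPM against 112 and 103 CPM. Both LY500307 libraries were below both vehicle libraries, and the gap between the groups was larger than the spread within either. Since the lower HK2 counts took part in choosing the list, this separation is a description only. The means were 154 ± 4.39 CPM (SD, n = 2) with vehicle and 107 ± 5.97 CPM (SD, n = 2) with LY500307, a ratio of 0.698. The log2 fold change was -0.52 (SE 0.10), just past the 0.5 limit, and its adjusted p was 0.422 with edgeR and 0.0568 with DESeq2. HK2 did not meet the criteria when libraries were scaled by their totals alone (-0.48), without vehicle replicate 1 (-0.49) or without LY500307 replicate 2 (-0.46).

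HK1, the ubiquitous hexokinase, had 181 and 187 CPM with vehicle and 189.6 and 147 CPM with LY500307, so that its LY500307 replicates lay on either side of the vehicle pair. Per length, HK2 made up 50.2% and 48.3% of the summed HK1 and HK2 level with vehicle and 40.6% and 45.0% with LY500307. The shares did not overlap, and the mean share was 6.47 percentage points lower with LY500307 (SD 1.32 with vehicle and 3.09 with LY500307, n = 2 each). The difference was -4.28 points without LY500307 replicate 1 and -8.65 points without replicate 2. The 2 LY500307 libraries arrived at a lower summed hexokinase level, 46.4 and 38.8 RPKM against 52.9 and 52.7 RPKM, with different contributions of HK1. ADPGK, whose product phosphorylates glucose with ADP, was higher in both LY500307 libraries, with a log2 fold change of 0.17. GPI, which isomerises glucose-6-phosphate, had 252 and 243 CPM with vehicle and 256 and 299.8 CPM with LY500307, also 0.17 on the log2 scale.

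Phosphofructokinase commits sugar to glycolysis. PFKM, the muscle type isozyme, made up 75.2% and 77.3% of the summed level of the 3 isozymes with vehicle and 77.0% and 76.1% with LY500307. PFKM had 232 and 258 CPM with vehicle and 226 and 266 CPM with LY500307, and PFKL, the liver type, had 71.3 and 74.1 CPM against 66.2 and 86.6 CPM. Both overlapped between the groups. PFKP, the platelet type, had 19.9 and 16.7 CPM with vehicle and 14.7 and 14.2 CPM with LY500307, a log2 fold change of -0.35 (SE 0.15) that was -0.21 without vehicle replicate 1. Its LY500307 libraries were below both vehicle libraries, but it held only 3.78% to 6.02% of the family level, and the summed phosphofructokinase level was 44.3 RPKM with vehicle and 44.4 RPKM with LY500307.

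The PFKFB enzymes set the amount of fructose-2,6-bisphosphate, the strongest allosteric activator of phosphofructokinase. PFKFB4 had 56.6 and 51.5 CPM with vehicle and 37.1 and 43.8 CPM with LY500307, a log2 fold change of -0.42 (SE 0.13). PFKFB3, the isozyme with the highest kinase activity of the family, had 72.8 and 67.7 CPM with vehicle and 55.1 and 60.4 CPM with LY500307, a log2 fold change of -0.28 (SE 0.11). For both genes the 2 LY500307 libraries lay below the 2 vehicle libraries, with replicate 1 the lower. PFKFB2, known as the heart type isozyme, had 71.3 and 62.6 CPM with vehicle and 67.4 and 82.9 CPM with LY500307, which overlapped (0.17, SE 0.13). Per length, the share of PFKFB2 in the 3 genes was 24.9% and 24.0% with vehicle and 30.5% and 32.3% with LY500307, a mean difference of 7.0 percentage points. The share of PFKFB4 was 32.9% in both vehicle libraries and 28.0% and 28.5% with LY500307, and that of PFKFB3 was 42.2% and 43.2% against 41.5% and 39.2%, a mean difference of -2.35 points that was -1.19 without LY500307 replicate 2. All 3 shares were apart between the groups, with PFKFB2 higher and the other 2 lower with LY500307. PFKFB4 reached a log2 fold change of -0.51 with a correction for GC content and -0.54 without LY500307 replicate 2, and then met the criteria, but -0.30 without LY500307 replicate 1 and -0.35 without vehicle replicate 1.

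**Figure D3:**
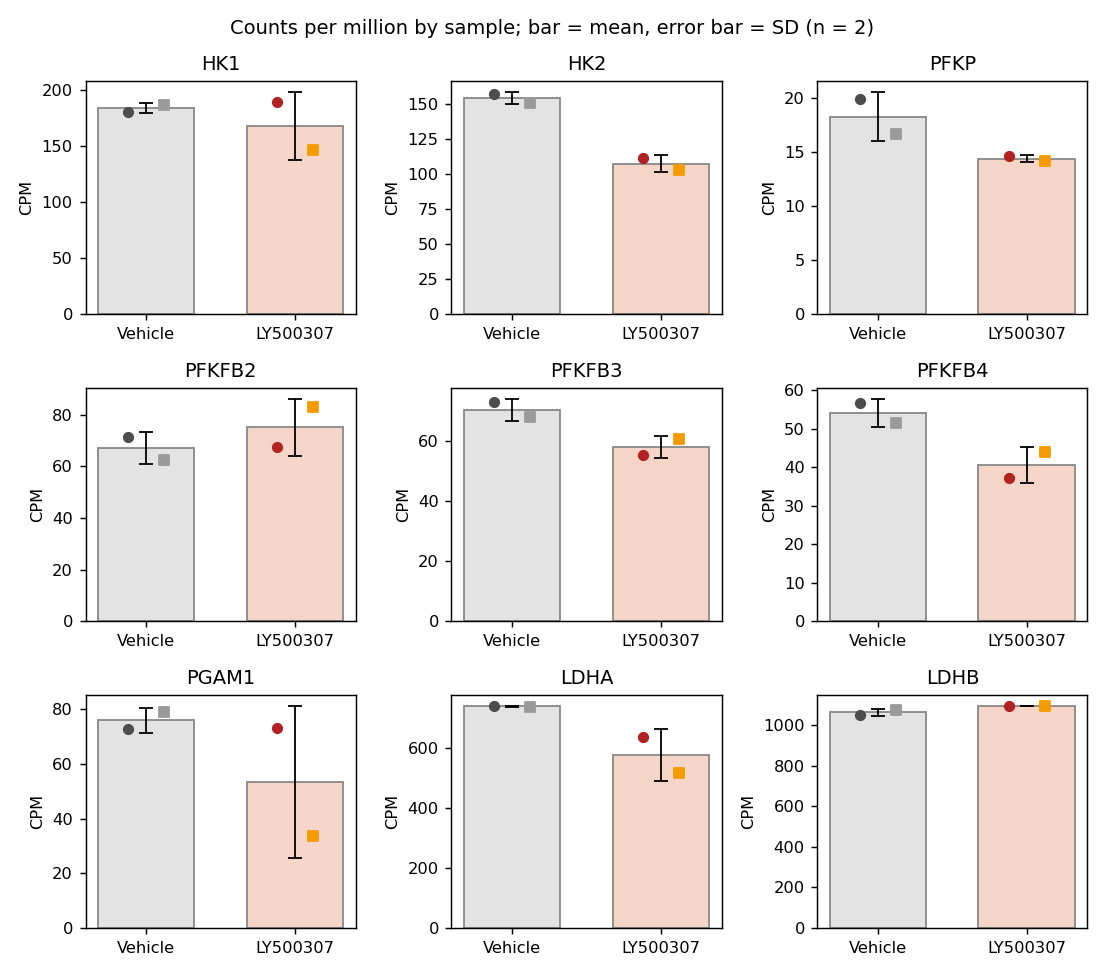
CPM of 9 members by group, with bars at the mean, error bars of 1 SD (n = 2) and 1 point per library. HK2, PFKP, PFKFB3, PFKFB4 and LDHA show both LY500307 points under both vehicle points, whereas HK1, PFKFB2 and PGAM1 overlap and LDHB stays between 1051 and 1097 CPM in all 4 libraries.

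From aldolase to phosphoglycerate, 3 of the 5 members were higher in both LY500307 libraries, 1 was lower in both and 1 overlapped. Among all genes tested 24.2% were higher in both and 24.4% lower in both. ALDOA had 552 and 555 CPM with vehicle and 572 and 638 CPM with LY500307 (log2 fold change 0.13). TPI1, the triosephosphate isomerase, had 280.0 and 269.6 CPM with vehicle and 291 and 347 CPM with LY500307 (0.22, SE 0.12). GAPDH had 1068 and 1065 CPM with vehicle and 1075 and 1312 CPM with LY500307 (0.16, SE 0.13). In these 3 genes both LY500307 libraries were the higher ones, and replicate 2 was the highest of the 4. For GAPDH, LY500307 replicate 1 was only 0.012 above the vehicle mean on the log2 scale, and replicate 2 was 0.299 above it. PGK1, which makes the first ATP of the pathway, had 385 and 376 CPM against 345 and 392 CPM and overlapped. ALDOC, the brain type aldolase, was lower in both LY500307 libraries (54.2 and 49.8 CPM against 45.0 and 49.1 CPM). Its share of the aldolase level per length was 12.6% and 11.6% with vehicle and 10.3% and 10.1% with LY500307, so ALDOA supplied most of it in every library.

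In lower glycolysis the 5 genes found overlapped between the groups. PGAM1, the phosphoglycerate mutase, was counted with 2183 and 2250 reads with vehicle and 2541 and 1090 reads with LY500307, or 72.8 and 79.1 CPM against 73.2 and 33.7 CPM. LY500307 replicate 1 lay within the vehicle range and replicate 2 far below it, so the log2 fold change of -0.51 (SE 0.30) came from 1 library. Leaving out LY500307 replicate 1 gave -1.17, and leaving out replicate 2 gave -0.05. Of the 50-base stretches of PGAM1 exons, 35.8% occur once in GRCh37, the lowest share of any member, and the annotation names 13 PGAM1 pseudogenes, so its counts are uncertain.

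BPGM, whose product makes 2,3-bisphosphoglycerate, had 34.9 and 38.6 CPM with vehicle and 45.2 and 34.9 CPM with LY500307. ENO1, the main enolase, had 913 and 881 CPM against 852 and 927 CPM, a log2 fold change of -0.01. ENO2, the neuronal type enolase, had 48.0 and 42.2 CPM against 35.0 and 42.7 CPM. The ENO2 share of the 2 enolases per length was 6.01% and 5.52% with vehicle and 4.76% and 5.32% with LY500307, so the shares were apart. PKM2, the row that holds all transcripts of the pyruvate kinase gene PKM, had 1422 and 1497 CPM with vehicle and 1459 and 1222 CPM with LY500307 (-0.12, SE 0.12). Counts per gene do not separate the PKM1 and PKM2 splice forms of that gene.

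Lactate dehydrogenase is a tetramer of A and B subunits, and the A subunit favours lactate formation. LDHA had 740.1 and 738 CPM with vehicle and 637 and 516 CPM with LY500307, a log2 fold change of -0.36 (SE 0.13). Both LY500307 libraries were below the vehicle libraries, which differed by little, and replicate 2 was the lowest. LDHB had 1051 and 1078 CPM with vehicle and 1097 CPM in both LY500307 libraries (0.04, SE 0.10). Per length, LDHA made up 25.9% and 25.3% of the summed level with vehicle and 22.3% and 18.9% with LY500307, a mean difference of -4.97 percentage points that was -3.25 without LY500307 replicate 2 and -6.69 without replicate 1. The summed level of both genes was 479 RPKM with vehicle and 463 RPKM with LY500307. Leaving out LY500307 replicate 1 gave LDHA a log2 fold change of -0.52, and leaving out replicate 2 gave -0.21.

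Of the lactate transporters, SLC16A1 (MCT1) had 226 and 237 CPM with vehicle and 224 and 225 CPM with LY500307, a log2 fold change of -0.05 (SE 0.10). SLC16A3 (MCT4), the exporter typical of highly glycolytic cells, had 111 and 125 reads with vehicle and 112 and 113 reads with LY500307, or 3.70 and 4.40 CPM against 3.23 and 3.49 CPM. Its share of the 2 transporters per length was between 0.981% and 1.26%. Nearly the whole summed level of the pair was therefore SLC16A1 in every library.

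**Figure D4:**
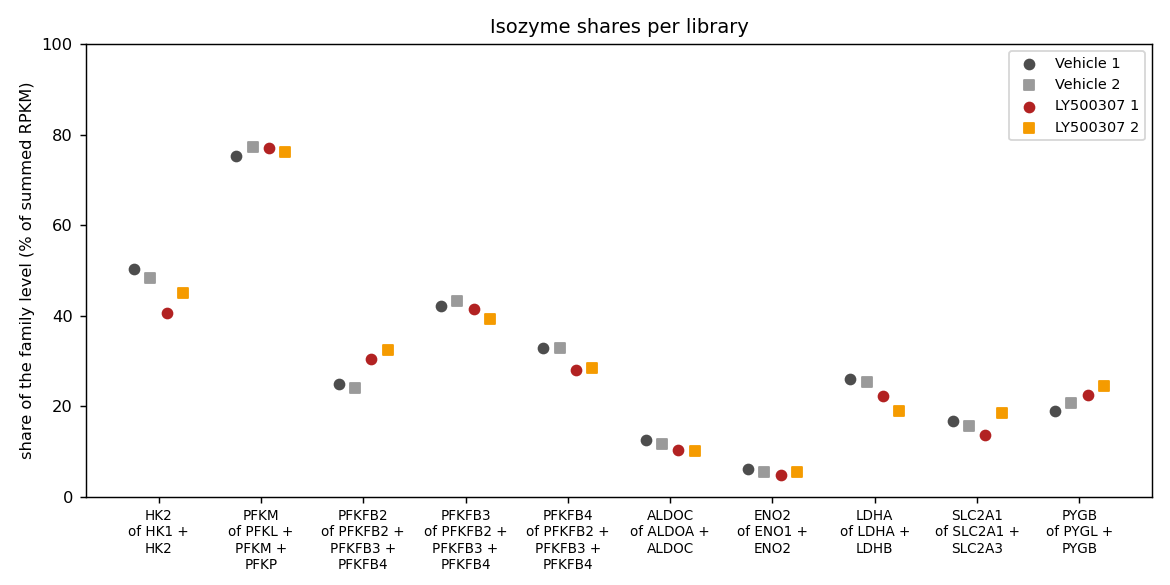
Share of a gene in the summed RPKM of its family (y axis, percent) for 10 members, 1 point per library. HK2, PFKFB3, PFKFB4, ALDOC, ENO2 and LDHA have lower shares in both LY500307 libraries than in both vehicle libraries. PFKFB2 and PYGB have higher shares in both, and PFKM stays between 75.2% and 77.3%.

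The glycogen genes had log2 fold changes from -0.19 to 0.27. PYGB, the brain type glycogen phosphorylase, had 56.5 and 63.2 CPM with vehicle and 68.1 and 75.9 CPM with LY500307, a log2 fold change of 0.27 (SE 0.12), and was the member with the largest positive value. PYGL, the liver type, had 245 and 249 CPM with vehicle and 239 CPM in both LY500307 libraries. Per length, PYGB made up 19.0% and 20.6% of the 2 phosphorylases with vehicle and 22.5% and 24.4% with LY500307, so the shares were apart. UGP2, which makes UDP-glucose for glycogen synthesis, had 102 and 105 CPM against 93.7 and 87.8 CPM (-0.19, SE 0.10). The branching enzyme gene GBE1 (-0.11) and the phosphoglucomutase gene PGM2 (-0.09) were also lower in both LY500307 libraries, whereas PGM1 (-0.11) and the glycogen synthase gene GYS1 (-0.02) overlapped. PGM1 held 30.3% to 34.8% of the summed PGM1 and PGM2 level. Of the gluconeogenic members, PCK2, the mitochondrial PEP carboxykinase, had 34.0 and 32.5 CPM with vehicle and 32.3 and 38.8 CPM with LY500307. FBP1, the liver type fructose-1,6-bisphosphatase, had 0 reads in 3 libraries and 1 read in LY500307 replicate 2.

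The replicates of the LY500307 group lay further apart than those of the vehicle group. The median size of the log2 difference between replicates was 0.067 over the members with vehicle and 0.171 with LY500307, against 0.106 and 0.216 over all genes tested. In the LY500307 pair 6 members (SLC2A1, HK1, PFKL, PGAM1, BPGM and LDHA) were over 0.3 apart, and in the vehicle pair 0 were. Over all genes tested the shares past 0.3 were 36% and 19.3%. For 8 members the LY500307 replicates fell on either side of the vehicle mean. HK2 was 0.46 below the vehicle mean in replicate 1 and 0.58 below it in replicate 2, and so was among the members on which the 2 libraries were close. Across the 34 members, the exonic GC content had a Pearson r of 0.29 (Spearman rho 0.40) with the log2 ratio of LY500307 replicate 2 to replicate 1, and of 0.06 (rho 0.12) with the log2 fold change. Across 13753 genes these values were 0.19 (rho 0.22) and 0.27 (rho 0.33). Genes share the libraries and are not independent replicates, and the part of GC content in the values was not tested beyond the GC correction.

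**Figure D5:**
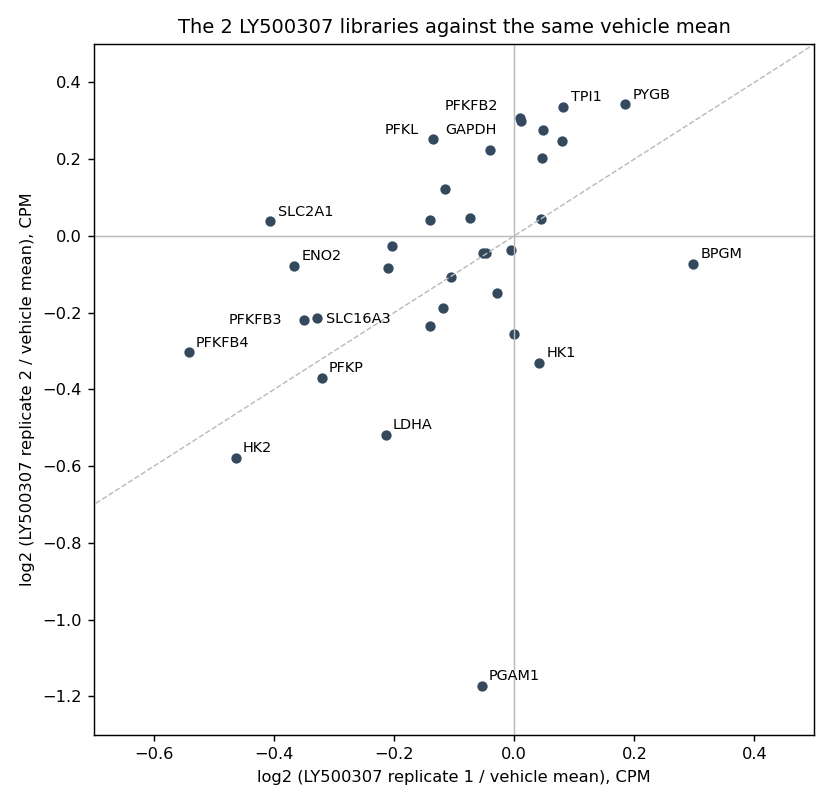
log2 ratio of LY500307 replicate 1 (x axis) and replicate 2 (y axis) to the same vehicle mean, in CPM, 1 point per member, with the dashed line where both replicates are equal. HK2 lies near the line at -0.46 and -0.58, PGAM1 lies far below it at -0.05 and -1.17, and BPGM and HK1 lie below it with replicate 1 above the vehicle mean.

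Around the pathway, 6 further lists were counted. Of 13 tested genes that admit pyruvate to mitochondria (pyruvate dehydrogenase subunits, their kinases and phosphatases, and the pyruvate carriers), 2 met the criteria lower and 0 higher. Their median log2 fold change was -0.10. Among all genes tested 1.86% met the criteria lower and 2.76% higher. PDK1, a kinase that switches pyruvate dehydrogenase off, had 55.8 and 54.4 CPM with vehicle and 34.6 and 38.2 CPM with LY500307, both below the vehicle libraries. PDK4, a kinase of the same family, rested on 22 reads in each vehicle library and 13 and 8 reads with LY500307. With DESeq2 it did not meet the criteria (Wald test p 0.14). The pentose phosphate branch had 0 of 8 genes past the criteria, with a median of 0.00 and a range from -0.11 to 0.35. Of 17 tested isozymes and paralogs outside the member list, 1 met the criteria, SLC2A8, a glucose transporter of internal membranes, with 7.14 and 6.58 CPM against 7.92 and 12.4 CPM. The whole list summed to 243 to 283 CPM, of which ENO3, the muscle type enolase, took 96.1 to 109 CPM. HKDC1 and HK3 had 5 reads or fewer in each library, and SLC2A2, PGK2, LDHAL6A, LDHAL6B and SLC16A8 had 0 reads throughout.

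The 16 other glycogen genes had a median of 0.04 and 0 past the criteria. The 8 other gluconeogenesis genes tested had 8 of 8 positive values, where 50% of all genes tested were above 0, and 0 met the criteria. Of the 8, 3 were higher in both LY500307 libraries than in both vehicle libraries, and 0 were lower in both. The shares over all genes tested were 24.2% higher in both and 24.4% lower in both. PCK1 rested on 1 and 16 reads with vehicle and 12 and 19 reads with LY500307 (0.65, SE 0.92), and MDH2 was at 0.05. The 8 genes had a median of 0.29. Against the vehicle mean their median was 0.07 in LY500307 replicate 1 and 0.42 in replicate 2. Among them GOT1, the cytosolic aspartate aminotransferase, had 70.3 and 75.3 CPM with vehicle and 87.5 and 98.6 CPM with LY500307. MDH1, the cytosolic malate dehydrogenase, had 154 and 152 CPM with vehicle and 150.4 and 255 CPM with LY500307, so that its positive value rested on replicate 2. Of 18 tested regulators of glycolytic gene expression, 0 met the criteria, with a median of 0.00. HIF1A had 280.0 and 285 CPM with vehicle and 281 and 230.4 CPM with LY500307, and MYC had 153 and 148 CPM against 161 and 140.1 CPM, which overlapped for both. MLXIPL, the carbohydrate-sensing transcription factor ChREBP, had 24.6 and 27.7 CPM with vehicle and 20.1 and 17.0 CPM with LY500307 (-0.49, SE 0.15), and EGLN1, the oxygen-sensing hydroxylase that marks HIF1A for degradation, had 165 CPM in both vehicle libraries and 127 and 141 CPM with LY500307 (-0.30, SE 0.10). In both genes the LY500307 libraries were below the vehicle libraries. These genes share the samples and the contrast with the members.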

How the data were processed

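RNA-seq was analysed for 2 Vehicle and 2 LY500307 samples, grouped and numbered by their titles. Per the labels, total RNA libraries were read as 50 nt single ends, while the study's methods name stranded mRNA libraries. The submitters' processing notes list bcl2fastq, TopHat2 2.0.8b, HTSeq and hg19. The authors deposited raw read counts per gene symbol, and reads with several alignments were tallied apart (32.3% to 33.4% of tallied reads), as were reads on no gene (17.3% to 20.5%). Both tallies stayed out of library sizes and tests. Whether counting used strand is not given in the sources used here, so overlapping genes are uncertain.

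Differences were tested on the counts by edgeR 4.0.16 under R 4.3.3 (TMM, filterByExpr, quasi-likelihood test, Benjamini-Hochberg adjustment over all genes tested), after a check on simulated data. The SE of a log2 fold change is its size over the square root of F. CPM and RPKM used TMM-scaled library sizes, and RPKM the exonic length in GENCODE 44 lifted to GRCh37, to which 91.6% of 23228 symbols were matched, 2138 by an older symbol. With 2 samples against 2, an exact permutation test cannot give a two-sided p below 0.333. The alternatives were DESeq2 1.42.0, other scalings and filters, GC correction (loess, span 0.3), a replicate block and each sample left out. Full values are given for HK2, members meeting the criteria or past 0.3 in log2 fold change, and isozymes. In the further lists, genes meeting the criteria are named, and the choice of others named there followed sight of their values. Some results of the further lists are not reported here. The members and lists were chosen with earlier results of these data known. Counting error alone is covered by the count of 3 reads given as a floor.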

Additional observations from a re-analysis of the deposited data

How the results depend on the processing

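HK2 was the 1 member that met the criteria, also with DESeq2, with its size factors in edgeR, with all genes of at least 1 count and with a mean of at least 1 CPM. Members meeting them numbered 0 with libraries scaled by totals alone, 2 with GC correction (HK2 and PFKFB4), 2 with the replicate block (HK2 and PGAM1, -0.61) and 3 with the block and GC correction together. With 1 sample left out they numbered 0 to 3, with 0 without vehicle replicate 1, PFKFB4 alone without LY500307 replicate 2, and HK2, PGAM1 and LDHA without LY500307 replicate 1. In such fits the lone sample is assumed to vary like the other group. All genes meeting the criteria numbered 669, and 352 to 1987 with 1 sample left out, the lowest without LY500307 replicate 2 and the highest without replicate 1. At an adjusted p under 0.05 there were 0 genes with edgeR, 16 with DESeq2, 1 with the block, 2 with the block and GC correction, and 590 and 5002 without LY500307 replicates 2 and 1. Of calls, 59.8% were higher with LY500307, but 69.7% with totals alone, 51.5% with GC correction, 47.7% with the block and GC correction and 42% (148 higher, 204 lower) without LY500307 replicate 2. The median log2 fold change of the members (-0.07) was -0.029 with totals alone, which moved the median of all genes to 0.04, -0.093 with GC correction, -0.095 with the block and GC correction, and -0.082 to -0.042 with 1 sample left out. The HK2 share with vehicle (49.3%) was 45.5% of raw counts and 45.6% per coding length. In 100 bases before the start, ACGTG was in 16.7% of member windows (8.99% of all windows), CACGTG in 3.33% (3.43%), GGTCA in 10% (15.1%) and GGGCGG in 50% (31.3%), with fewer bases read, so that the CACGTG share was no longer above that of all windows. The deviations of same-numbered samples correlated at -0.07 over the genes tested, -0.229 over genes above median expression and -0.366 over the members. None was positive, so the numbers were taken as names only. With 2 samples per group the 2 deviations of a gene mirror each other. Samples of opposite number therefore correlated at the same sizes with a positive sign. Whether samples of opposite number shared a batch was not tested beyond this. No log2 fold change that met the criteria changed sign. Apart from the 1 sample left out and the fewer bases read, the cause was not tested. Depth limits SLC16A3, ESR2 and FBP1.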
